A study of Mus musculus with 18 samples.

Results

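The 9 genes described here are 8 adrenergic receptor genes and Nisch, taken by symbol from the 21015 gene identifiers of the count table. They comprise 3 alpha2 receptors (Adra2a, Adra2b and Adra2c), 3 alpha1 receptors (Adra1a, Adra1b and Adra1d), 2 beta receptors (Adrb1 and Adrb3) and the imidazoline-binding protein nischarin. RNA came from tumours of MC38-OVA cells, a mouse colon carcinoma line that carries ovalbumin as a model antigen, implanted either in wild-type hosts (WT) or in Adra2a knockout hosts (KO). The labels give the hosts an age of 10 weeks and place tumour collection 7 days after treatment. Clonidine, guanabenz or the vehicle PBS was injected daily into the peritoneal cavity, at doses the labels do not state. Each genotype was crossed with each treatment, which gave 6 groups of 3 libraries. They are named by genotype and treatment, WT-Control and KO-Control for the vehicle, WT-Clonidine and KO-Clonidine, and WT-Guanabenz and KO-Guanabenz.

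All 6 groups share the implanted MC38-OVA cells, which have their own genome, so the knockout applies to host cells in the tumour and not to the tumour cells. The sources used here do not give the allele of Adra2a or the part of the gene it removes. For the 3 KO-Guanabenz libraries the title and the treatment entry, which reads Untreated, contradict each other, and the grouping follows the title. Nothing in the labels says that the 3 libraries of a group came from separate mice, so p-values reflect only how far these libraries scatter, and that scatter may be technical. Total counts per library, in units of 1e6, ran from 54.7 to 491.1 with a median of 92.4. The mean of 3 Y-linked transcripts (Ddx3y, Eif2s3y and Uty) was above 1 CPM (counts per 1e6 counts) in 11 of 18 libraries, including 3 in WT-Control, 0 in KO-Clonidine and 2 in each other group. Except in WT-Control and KO-Clonidine, the libraries of a group thus lay on both sides of that level. Host sex is not in the labels. Whether these libraries came from separate mice of both sexes, and the part of sex in the results, was not tested. Markers of colon epithelium were low throughout: 7 of 7 were detected with a summed level of 3.92 to 14.2 CPM, with Krt8 at a median of 0.194 and Epcam at 1.03. Macrophage markers summed to between 3880 and 5120 and fibroblast markers to between 5850 and 10700.

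Adrenergic receptors are G protein-coupled receptors for noradrenaline, released by sympathetic nerve endings, and for adrenaline from the adrenal gland. Alpha2 receptors couple to inhibitory G proteins and lower cyclic AMP, alpha1 receptors couple to Gq and raise calcium, and beta receptors couple to Gs and raise cyclic AMP. On nerve endings, alpha2 receptors also restrain further noradrenaline release, and clonidine and guanabenz are agonists of this class. Clonidine holds an imidazoline ring, whereas guanabenz has an open guanidine chain in its place. Nischarin was put forward as a candidate imidazoline receptor, and is known as a cytoplasmic partner of integrin alpha5 that restrains PAK1 and Rac-driven cell migration.

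The promoters of 4 genes are printed because these genes mark the range of the measurements: Nisch had the highest level, Adra2c the lowest, Adra2a was the disrupted gene, and Adrb1 showed the largest differences with drug treatment. Each is the 250 bases before the annotated start of the gene in the RefSeq annotation of GRCm38.p6, written 5′ to 3′ on the gene's strand. Capitals mark a TATA box (TATAAA), a GC box (GGGCGG) or the short form of the cyclic AMP response element (TGACG), each searched on both strands.
Adra2a, chr19:54045009-54045258, plus strand: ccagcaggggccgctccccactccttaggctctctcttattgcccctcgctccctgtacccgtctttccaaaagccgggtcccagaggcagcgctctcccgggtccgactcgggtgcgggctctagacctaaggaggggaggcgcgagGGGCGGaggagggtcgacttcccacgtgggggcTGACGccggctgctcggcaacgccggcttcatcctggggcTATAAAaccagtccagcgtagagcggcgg
Adra2c, chr5:35278316-35278565, plus strand: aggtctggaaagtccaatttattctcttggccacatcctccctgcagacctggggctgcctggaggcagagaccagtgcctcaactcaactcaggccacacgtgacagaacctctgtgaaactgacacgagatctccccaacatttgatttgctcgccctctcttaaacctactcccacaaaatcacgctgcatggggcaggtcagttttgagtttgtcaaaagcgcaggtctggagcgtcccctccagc
Adrb1, chr19:56721867-56722116, plus strand: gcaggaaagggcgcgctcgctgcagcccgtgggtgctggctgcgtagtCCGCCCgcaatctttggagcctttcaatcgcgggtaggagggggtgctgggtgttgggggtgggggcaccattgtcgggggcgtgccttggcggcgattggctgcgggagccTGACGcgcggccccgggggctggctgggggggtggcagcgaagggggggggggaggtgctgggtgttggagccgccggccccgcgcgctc
Nisch, chr14:31206827-31207076, minus strand: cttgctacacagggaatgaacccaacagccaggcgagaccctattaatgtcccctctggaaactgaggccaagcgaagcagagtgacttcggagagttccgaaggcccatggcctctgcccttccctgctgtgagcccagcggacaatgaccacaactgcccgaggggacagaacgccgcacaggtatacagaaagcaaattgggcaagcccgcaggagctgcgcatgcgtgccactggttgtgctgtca

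The Adra2a window held 1 TATA box, which begins 29 bases before the start, 1 GC box and 1 short cyclic AMP element. The Adrb1 window held 1 GC box and 1 short cyclic AMP element, while neither the Adra2c nor the Nisch window held any of these letters. Over all 32851 promoters of the same length, a TATA box was present in 12.4%, a GC box in 32.7% and the short cyclic AMP element in 17.8%. The full cyclic AMP element (TGACGTCA, which contains the short form) was present in 1.55% of all promoters and in none of the 4 printed here. CpG pairs numbered 22 in Adra2a, 24 in Adrb1, 11 in Nisch and 6 in Adra2c, against a median of 6 over all promoters (quartiles 2 and 16). These matches describe the sequence only. A promoter was found for 6 of the 9 genes.

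Levels are given as CPM after TMM scaling, and between genes as CPM per kilobase of the longest transcript. Nisch stood far above every receptor, with a mean of 269 CPM (SD 12.9 over 18 libraries) and 48.3 CPM per kilobase. That placed it at percentile 91.2 of those of the 16125 genes tested that had a transcript length. Of the receptors, the alpha1 genes Adra1b and Adra1d were the most abundant per kilobase, at 0.909 and 0.757, which are percentiles 28 and 26.5. Adrb1 and Adrb3 followed at 0.301 and 0.278 CPM per kilobase. Adra2b (0.0902), Adra2a (0.0628) and Adra1a (0.0574) lay below them, at percentiles 9.53, 6.49 and 5.85. Adra2c was almost without counts, at 0.00178 CPM per kilobase. In whole-tumour RNA, fewer cells of a type and less RNA per cell cannot be told apart.

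**Figure D1:**
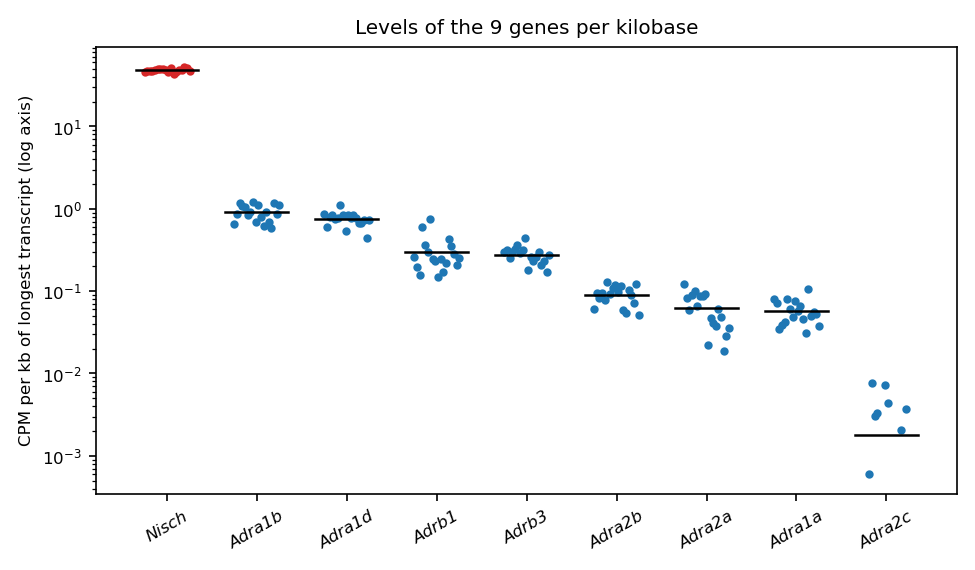
Level of each gene in CPM per kilobase of its longest transcript (log axis), with 1 point per library and a line at the mean of 18 libraries. Nisch (red) lies at 48.3 and the receptors lie below 1 on average; the 10 libraries in which Adra2c had no counts cannot be drawn on a log axis.

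Adra2a (gene 11551, chromosome 19, 54045259 to 54048982, GRCm38) encodes the alpha2A receptor and was the gene targeted in the KO hosts. WT-Control 1, 2 and 3 held 0.589, 0.401 and 0.286 CPM, WT-Clonidine 0.435, 0.484 and 0.32, and WT-Guanabenz 0.423, 0.426 and 0.448. KO-Control held 0.106, 0.231 and 0.199 CPM, KO-Clonidine 0.183, 0.293 and 0.234, and KO-Guanabenz 0.0917, 0.139 and 0.171. Each KO group lay below the WT group given the same treatment with no overlap, although KO-Clonidine 2 at 0.293 lay just above WT-Control 3 at 0.286. Adrb3 showed the same pattern under clonidine and under guanabenz. The share of all genes with this pattern was taken for the PBS pair only. The Adra2a levels rest on 7 to 138 counts per library. Of the groups in order of their means, WT-Clonidine (0.413 ± 0.0845 CPM, SD, n = 3) and KO-Clonidine (0.237 ± 0.0548) were the only neighbours separated by more than their spread.

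Adra2a fell in KO tumours by 1.22 on the log2 scale over the 3 treatments (SE 0.2, 95% interval -1.64 to -0.81), which is a ratio of KO to WT of 0.428. The adjusted p was 0.016 in edgeR's quasi-likelihood test with Benjamini-Hochberg adjustment over all 16125 genes. Adra2a was the 1 member called of 8 tested, where 0.416% of all genes were called in this comparison. Without KO-Guanabenz 1 the difference was -1.15 with an adjusted p of 0.053, so that the call was lost; it held in the other 17 omissions of a library. With the 3 KO-Guanabenz libraries left out it was -1.01 (adjusted p = 0.031), and with them read as KO-Control it was -1.11 (adjusted p = 0.033). Over all settings that could be fitted and gave an adjusted p, that p ran from 0.0078 to 0.053. Between the PBS groups alone the difference was -1.2 (SE 0.34, unadjusted p = 0.0028, adjusted p = 1). In that comparison Adra2a was the 1 member whose KO libraries lay wholly below the WT libraries, as 3.77% of all genes did. No member was called there, against 0.0062% of all genes, and 1 of 8 had an unadjusted p under 0.05, against 3.68%. No gene of the 15 marker lists of cell types was called in KO minus WT. Differences of single markers ran mostly 1 way in several lists. Negative were 5 of 6 pericyte and smooth muscle markers (median -0.24), 5 of 5 skeletal muscle markers (median -0.47) and 6 of 6 T cell markers (median -0.2). So were 5 of 5 keratinocyte markers (median -0.25), 4 of 4 mast cell markers (median -0.21), 2 of 2 tested sympathetic neuron markers (median -0.21) and 5 of 6 adipocyte markers (median -0.33). Also negative were 5 of 7 epithelial tumour markers (median -0.31) and 3 of 4 Schwann cell markers (median -0.41). Positive were 3 of 3 erythroid markers (median 0.9) and 4 of 5 fibroblast markers (median 0.08). The part of these cell types in the Adra2a values was not tested.

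The test for any difference among the 6 groups also called Adra2a (adjusted p = 0.037 in edgeR), and no other member, where 2.02% of all genes were called. That call was lost, among other settings, in 12 of 18 omissions of a library, with total-count scaling, with KO-Guanabenz left out and with KO-Guanabenz read as KO-Control. Adrb1 (unadjusted p = 0.042, adjusted p = 0.24) made up, with Adra2a, the 2 of 8 members under 0.05 before adjustment, against 19.2% of all genes. Adrb3 had an unadjusted p of 0.062 and an adjusted p of 0.28.

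**Figure D2:**
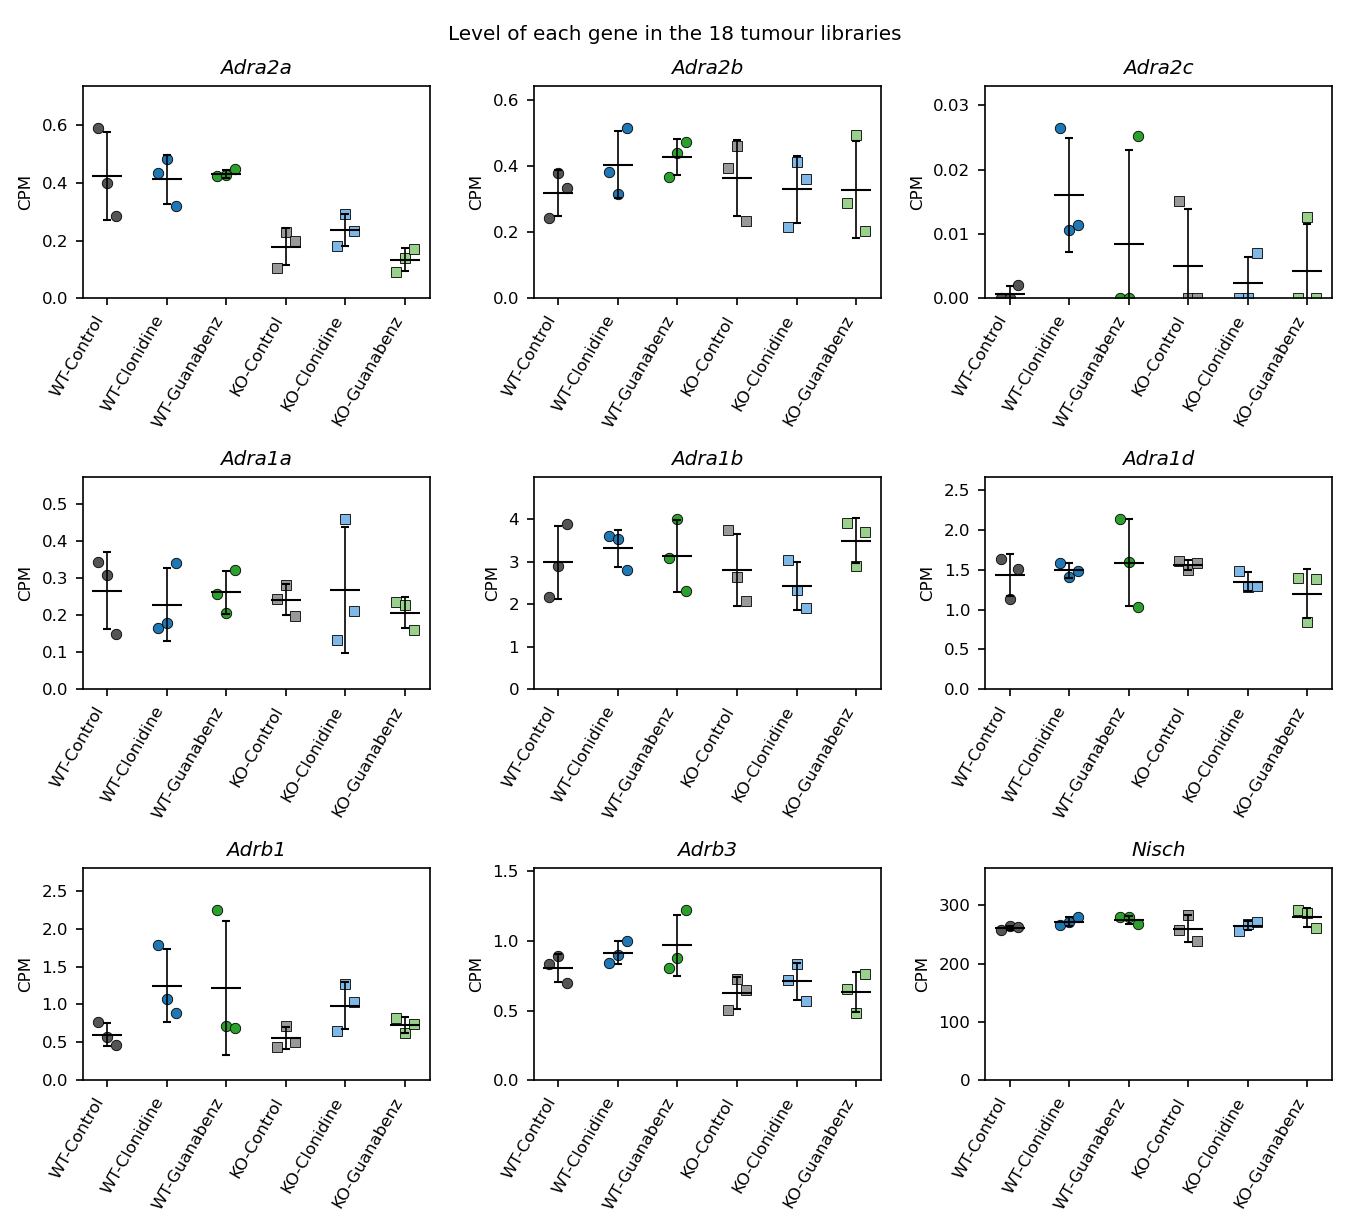
CPM of each gene in each library by group (circles WT, squares KO), with the mean as a line and the SD as a bar (n = 3); each vertical axis starts at 0 and has its own range. Adra2a shows a step between the WT groups, at 0.413 to 0.432 on average, and the KO groups, at 0.134 to 0.237.

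Adra2b (gene 11552, chromosome 2), the alpha2B receptor, spanned 0.244 to 0.514 CPM in WT libraries (median 0.38) and 0.205 to 0.493 in KO libraries (median 0.361). Group means ran from 0.319 ± 0.0695 in WT-Control to 0.427 ± 0.054 CPM in WT-Guanabenz (SD, n = 3), and no neighbours in that order differed beyond their spread. The KO minus WT difference was -0.15 on the log2 scale (SE 0.2, adjusted p = 0.73 in edgeR), with an interval of -0.58 to 0.27. These values rest on 13 to 161 counts per library.

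Adra2c (gene 11553, chromosome 5), the alpha2C receptor, had 16 counts over the 18 libraries and no counts in 10 of them. The WT-Clonidine libraries had 4, 3 and 1 counts, WT-Guanabenz 3 and KO-Control 1 had 4 and 1, and WT-Control 3, KO-Clonidine 3 and KO-Guanabenz 2 had 1 each. WT-Clonidine was the 1 group with counts in every library, at 0.0264, 0.0106 and 0.0114 CPM, against 0, 0 and 0.00207 in WT-Control. A library with no counts allows a level of up to 3 counts, which is 0.0235 to 0.0549 CPM in the 10 libraries and covers counting error only. The levels of Adra2c therefore lie at or near the detection limit in every group, no fold is given, and the gene did not pass the filter on low counts.

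Adra1b (gene 11548, chromosome 11), the alpha1B receptor, was the most abundant receptor of the 8 per kilobase. It lay between 2.16 and 3.99 CPM in WT libraries (median 3.09) and between 1.92 and 3.9 in KO libraries (median 2.89). Means ran from 2.43 ± 0.561 in KO-Clonidine to 3.49 ± 0.532 CPM in KO-Guanabenz (SD, n = 3), and every pair of neighbours in the order overlapped. The KO minus WT difference was -0.13 (SE 0.15, interval -0.45 to 0.19, adjusted p = 0.69 in edgeR).

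Adra1d (gene 11550, chromosome 2), the alpha1D receptor, held 1.63, 1.13 and 1.51 CPM in WT-Control, 1.59, 1.41 and 1.48 in WT-Clonidine, and 2.13, 1.6 and 1.03 in WT-Guanabenz. KO-Control held 1.61, 1.49 and 1.58 CPM, KO-Clonidine 1.48, 1.28 and 1.29, and KO-Guanabenz 1.39, 0.846 and 1.38. Both drug groups of KO hosts thus lay wholly below KO-Control, under clonidine only by 1.48 against 1.49 CPM. The log2 differences were -0.21 for KO-Clonidine (SE 0.24, adjusted p = 1) and -0.37 for KO-Guanabenz (SE 0.24, adjusted p = 0.5), neither past the threshold in edgeR. Non-overlap in this direction occurred for 4.43% of all genes under clonidine and 10.5% under guanabenz, and the 2 comparisons share the KO-Control libraries. Marker sums also lay apart from KO-Control: dendritic cell markers lay wholly below it in KO-Clonidine (23.3 to 28.6 against 32.4 to 39.1 CPM). In KO-Guanabenz the endothelial, fibroblast and sympathetic neuron sums lay wholly above it and the skeletal muscle sum wholly below (35.3 to 92.8 against 97.3 to 164 CPM). Their part in the Adra1d values was not tested. The KO minus WT difference over 3 treatments was -0.14 (SE 0.14, adjusted p = 0.64). An annotated antisense gene, Gm14285, overlaps exons of Adra1d and holds 6.31% of its 31-base words, so reads from the 2 genes cannot be told apart there unless the counting used strand, on which the labels are silent.

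Adra1a (gene 11549, chromosome 14), the alpha1A receptor, was the least abundant of the 8 tested members per kilobase. It ranged from 0.149 to 0.345 CPM in WT libraries (median 0.257) and from 0.133 to 0.459 in KO libraries (median 0.227). Its highest and lowest libraries, KO-Clonidine 2 and KO-Clonidine 1, were in the same group. The KO minus WT difference was -0.05 (SE 0.26, interval -0.59 to 0.49, adjusted p = 0.94 in edgeR), a wide interval at 8 to 72 counts per library, and its sign changed with the processing.

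Adrb1 (gene 11554, chromosome 19, 56722117 to 56725150), the beta1 receptor known for its role in the heart, had its highest group means under clonidine and guanabenz in WT hosts. WT-Control held 0.771, 0.576 and 0.464 CPM, WT-Clonidine 1.79, 1.07 and 0.89, and WT-Guanabenz 2.24, 0.719 and 0.694. KO-Control held 0.441, 0.718 and 0.507 CPM, KO-Clonidine 0.65, 1.27 and 1.03, and KO-Guanabenz 0.825, 0.619 and 0.74. All WT-Clonidine libraries lay above all WT-Control libraries, as for 11.1% of all genes, whereas WT-Guanabenz stood out through 1 library and overlapped WT-Control in the others. In KO hosts both drug groups overlapped KO-Control. Of the 31-base words of Adrb1, 2.03% are found in other genes (350 genes), with 28 matches to other members. Part of its counts may therefore belong to other genes, and their part in the Adrb1 values was not tested.

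In WT hosts the log2 difference of Adrb1 under clonidine was 1.07 (SE 0.41, interval 0.21 to 1.93, 2.1-fold), with an unadjusted p of 0.018 and an adjusted p of 0.28 in edgeR. It was thus not called, and it was 0.72 without WT-Clonidine 1. Under guanabenz it was 1 (SE 0.42, unadjusted p = 0.028, adjusted p = 0.38), and 0.24 without WT-Guanabenz 1, the library at 2.24 CPM. In KO hosts the differences were 0.84 under clonidine (SE 0.42, interval -0.05 to 1.73, adjusted p = 0.94) and 0.39 under guanabenz (SE 0.43, adjusted p = 0.73). The clonidine difference did not differ detectably between genotypes: the interaction was -0.23 (SE 0.58, interval -1.47 to 1, adjusted p = 0.93). For guanabenz the interaction was -0.61 (SE 0.59, interval -1.87 to 0.65, adjusted p = 0.93). Averaged over both genotypes, a comparison chosen after the values of Adrb1 were seen, the clonidine difference was 0.95 (SE 0.29, unadjusted p = 0.0049, adjusted p = 0.33), with 0% of all genes called and 9.23% under an unadjusted p of 0.05. In WT-Clonidine, 4 of 15 marker lists also lay wholly above WT-Control. All 6 T cell markers were detected, with sums of 23.1 to 31.7 against 13.1 to 18.4 CPM, and all 4 mast cell markers, with 11.5 to 18.4 against 6.66 to 9.37, although Ms4a2 was at 0 in 1 of the 18 libraries. All 5 endothelial markers summed to 207 to 224 against 172 to 195 CPM, and all 6 pericyte and smooth muscle markers to 246 to 269 against 214 to 244. Their part in the Adrb1 values was not tested. In KO-Clonidine none of these 4 lists lay wholly above KO-Control. Adrb1 lies 2.67 Mb from Adra2a on chromosome 19, and its KO minus WT difference over 3 treatments was -0.38 (SE 0.24, interval -0.89 to 0.12, adjusted p = 0.41), or -0.13 without WT-Guanabenz 1.

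**Figure D3:**
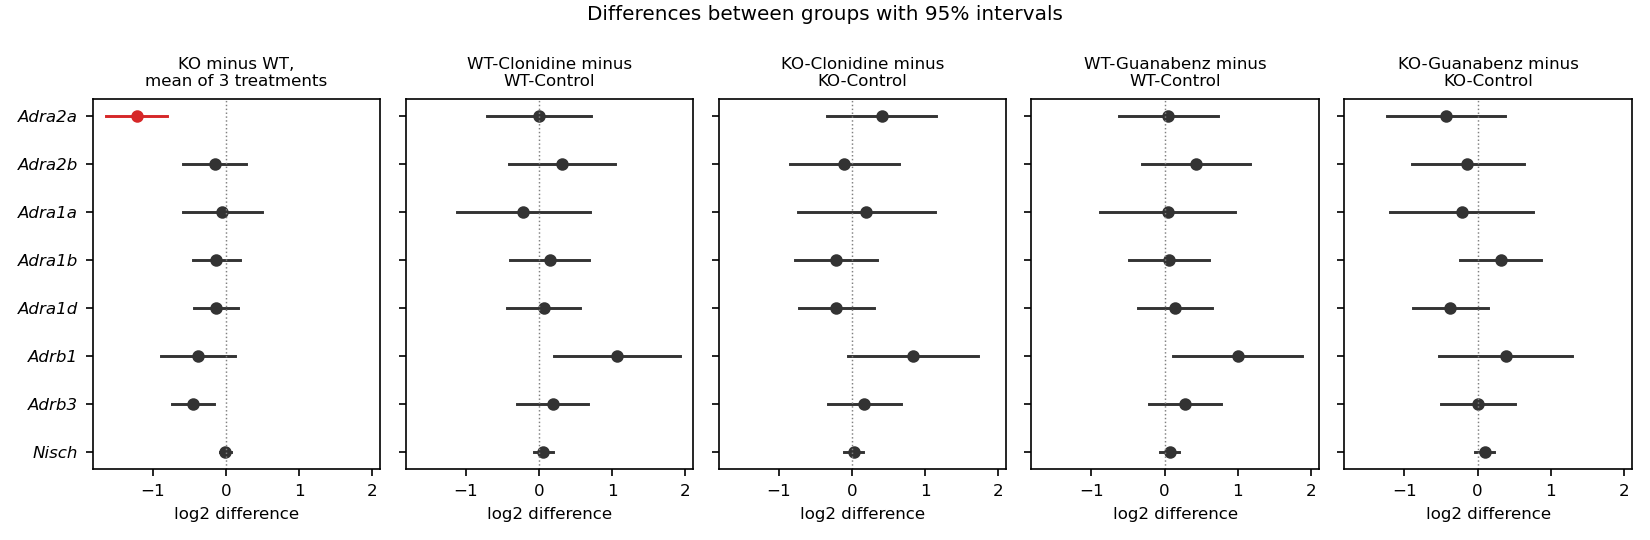
Log2 difference of each tested gene (points) with its 95% interval (bars) in 5 comparisons; red marks a call at an adjusted p under 0.05, and Adra2c was not tested. Adra2a in KO minus WT (-1.22) is the only call, and the intervals of Adrb1 lie above 0 in both WT drug comparisons without a call.

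Adrb3 (gene 11556, chromosome 8), the beta3 receptor known for its role in fat cells, had group means of 0.628 to 0.71 CPM in KO hosts against 0.809 to 0.969 in WT hosts, a difference that did not pass the test. WT-Control held 0.832, 0.894 and 0.7 CPM, WT-Clonidine 0.844, 0.901 and 1, and WT-Guanabenz 0.809, 0.88 and 1.22. KO-Control held 0.502, 0.731 and 0.652 CPM, KO-Clonidine 0.717, 0.839 and 0.573, and KO-Guanabenz 0.655, 0.48 and 0.763. The WT libraries ranged from 0.7 to 1.22 (median 0.88) and the KO libraries from 0.48 to 0.839 (median 0.655), so the genotypes overlapped. Within clonidine the KO libraries lay wholly below the WT libraries, by 0.839 against 0.844 CPM. Within guanabenz they did so by 0.763 against 0.809 CPM, while the PBS groups overlapped. The share of all genes with such non-overlap was not taken within either drug. In the comparisons of 3 against 3 libraries where it was counted, non-overlap in either direction occurred for 8.33% to 20.9% of all genes. The difference over 3 treatments was -0.45 (SE 0.13, interval -0.73 to -0.16), with an unadjusted p of 0.0042 and an adjusted p of 0.12 in edgeR. Between the PBS groups it was -0.35 (SE 0.23, adjusted p = 1). The antisense gene Gm45470 overlaps its exons and accounts for 722 of the 740 of its 31-base words found in other genes, 22% of all its words, so part of these counts may belong to either gene. Adipocyte markers, 6 of 6 detected, summed to 22.4 to 46.3 CPM in WT and 16.6 to 42.6 in KO libraries. Pericyte and smooth muscle markers summed to 187 to 269 in WT and 174 to 261 in KO. Both sums overlapped between genotypes. Gene by gene, 5 of 6 pericyte and smooth muscle markers had a negative KO minus WT difference (median -0.24), and 4 of 6 had an unadjusted p under 0.05, against 17.4% of all genes, with none called. Of the adipocyte markers 5 of 6 were negative (median -0.33), and 0 had an unadjusted p under 0.05. The part of these cell types in the Adrb3 values was not tested.

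All 8 tested members had a negative KO minus WT difference, with a median of -0.15, against a median of -0.01 over all genes. The differences of Adra1a (-0.05) and Nisch (-0.01) changed sign under some settings. The share of all genes with a negative difference was not taken. Apart from Adra2a the members ranged from -0.45 to -0.01 and none was called. Those with an unadjusted p under 0.05 were 2 of 8, Adra2a and Adrb3, against 17.4% of all genes. No member had its 9 KO libraries wholly below its 9 WT libraries, a pattern found in 0.0372% of all genes.

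Nisch (gene 64652, chromosome 14, 31170928 to 31206826), which encodes nischarin, had the smallest ratio of the highest to the lowest library of the 9, at 1.22. WT-Control held 257, 264 and 262 CPM, WT-Clonidine 266, 271 and 280, and WT-Guanabenz 279, 279 and 267. KO-Control held 257, 284 and 239 CPM, KO-Clonidine 256, 268 and 271, and KO-Guanabenz 291, 286 and 261. Both WT drug groups lay just above WT-Control, as 11.1% of all genes did under clonidine and 6.41% under guanabenz, and KO groups overlapped. The log2 differences were 0.06 under clonidine (SE 0.06, adjusted p = 0.74) and 0.07 under guanabenz (SE 0.06, adjusted p = 0.68 in edgeR). KO minus WT was -0.01, with an interval of -0.08 to 0.07 (SE 0.04, adjusted p = 0.92), the narrowest interval of the 8 tested members. Nisch was measured on 15164 to 126564 counts per library, far more than any receptor. Counting error widens the ratios and intervals of the receptors more, so these do not rank the genes by steadiness.

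Across the drug comparisons no member was called by edgeR, DESeq2 or limma-voom. A member to which DESeq2 gave no adjusted p counted as not called. In WT hosts, 0% of all genes were called by edgeR under either drug. Adrb1 was the 1 of 8 members with an unadjusted p under 0.05 in each, against 12.9% of all genes under clonidine and 11.4% under guanabenz. Leaving out Adrb1, members ranged from -0.21 (Adra1a) to 0.32 (Adra2b) under clonidine and from 0.04 (Adra1a) to 0.43 (Adra2b) under guanabenz. Medians over the 8 members were 0.11 in both comparisons, which share the WT-Control libraries. Of the 8 tested members, Adrb1 and Nisch lay wholly above WT-Control under clonidine, as 11.1% of all tested genes did. Adra2c, barely detected and outside that share because it did not pass the filter, lay above it too. In KO hosts 0.0186% of all genes were called under clonidine and 0.0124% under guanabenz. No member had an unadjusted p under 0.05 there, against 5.52% and 15.1% of all genes. Members ranged from -0.21 (Adra1b) to 0.84 (Adrb1) under clonidine and from -0.43 (Adra2a) to 0.39 (Adrb1) under guanabenz. Differences of the drug response between genotypes were not called for any member, against 0% of all genes for clonidine and 0.0062% for guanabenz. No member had an unadjusted p under 0.05 in either, where 8.94% and 5.71% of all genes did.

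Clonidine and guanabenz were set side by side in WT hosts as the 1 pair of compounds, both collected 7 days after treatment. The labels give no doses, so whether the doses match is not known. No member differed between them in edgeR: the log2 differences ran from -0.26 (Adra1a) to 0.09 (Adra1b), all with an adjusted p of 0.99. Of all genes 0% were called, and 0 of 8 members had an unadjusted p under 0.05, against 5.05%. For Nisch the difference was -0.01 with an interval of -0.14 to 0.12. For Adrb1 it was 0.07 with an interval of -0.79 to 0.93, and 0.83 without WT-Guanabenz 1, so the interval spans sizeable differences in both directions.

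The rest of the pathway was read from 5 lists of genes, and 0 genes of any list were called in any comparison by edgeR. Of 13 genes that make, transport or break down catecholamines, 8 were tested. Ddc, which makes dopamine, was detected in every library at 0.4 to 1.05 CPM. Th, the rate-limiting enzyme of catecholamine synthesis, had a median of 0.0219 CPM, and Dbh, which makes noradrenaline, had no counts in 13 of 18 libraries. Pnmt, which makes adrenaline, had none in 15. The noradrenaline transporter Slc6a2 had a median of 0.235 CPM. The degrading enzyme Maoa was at 11.5 CPM per kilobase. It had a KO minus WT difference of 0.2 (SE 0.04, unadjusted p = 0.00033, adjusted p = 0.051), just outside the threshold. The summed level of the sympathetic neuron markers ran from 0.45 to 1.45 CPM.

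The 17 G proteins and adenylyl cyclases had a median KO minus WT difference of -0.05, with 6 above and 11 below 0. Gnai2, the inhibitory partner of alpha2 receptors, and Gnas, the stimulatory partner of beta receptors, were at 251 and 210 CPM per kilobase, far above the receptors. Their KO minus WT differences were 0 and 0.04 (SE 0.04 each, adjusted p = 0.99 and 0.58 in edgeR). The 16 cyclic AMP effectors and phosphodiesterases had a median of 0.01, and Prkar1a and Prkaca, subunits of protein kinase A, were the most abundant at 124 and 54.6 CPM per kilobase. The 14 receptor kinases, arrestins and RGS proteins had a median of 0.04, led in level by Arrb2 (84.2) and Rgs10 (68.4 CPM per kilobase). The 10 partners of Nisch had a median of 0, led by Itgb1 (292), an integrin chain, and Rac1 (144 CPM per kilobase), a GTPase of cell migration. Under clonidine in WT hosts the 5 medians lay between 0 and 0.09. With 0.003 as the median of all genes there, these lists are described and not tested as lists.

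**Figure D4:**
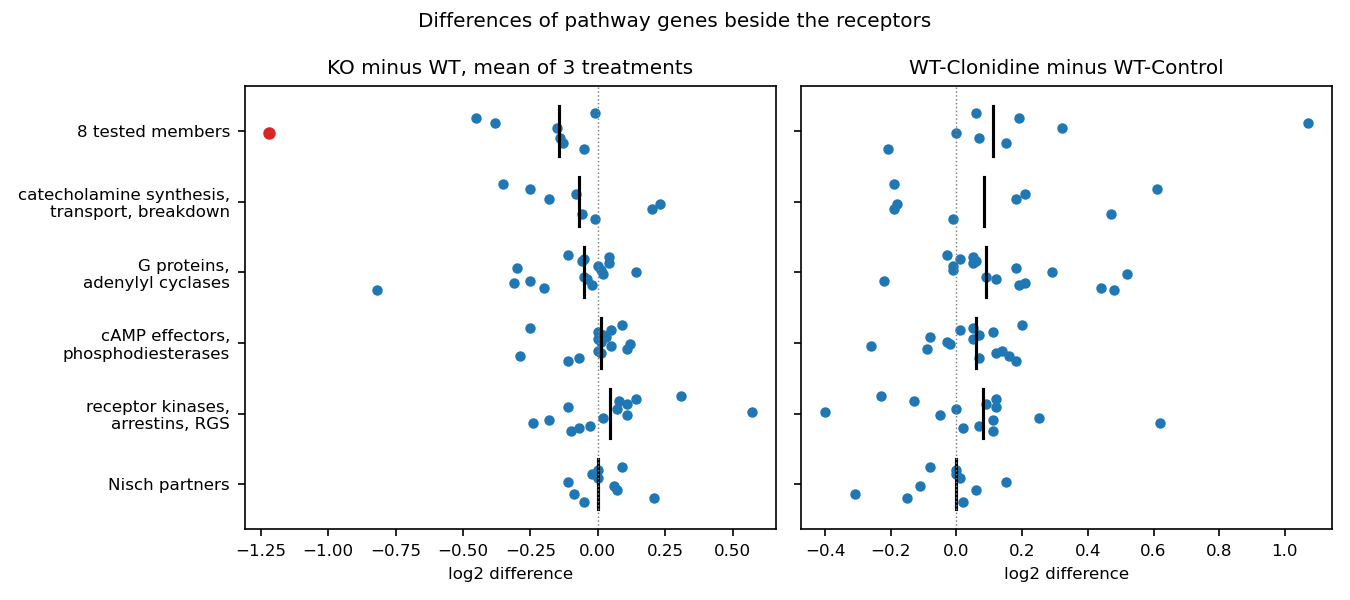
Log2 difference of each tested gene (points) and the median of its list (black line) for the 8 tested members and 5 pathway lists, in KO minus WT (left) and WT-Clonidine minus WT-Control (right); red marks the only call, Adra2a at -1.22. The medians of the pathway lists lie between -0.07 and 0.04 on the left and between 0 and 0.09 on the right.

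The genes whose log2 CPM over the 18 libraries was most like that of each member are given as a description, from 11873 genes with a mean log2 CPM of at least 1; the libraries share depth and group structure. For Adra2a these were Adam33, Gfm2 and Tinagl1, with Spearman correlations of 0.83, 0.83 and 0.82. For Adra2b they were Adam1a, Fam193b and Brd8 (0.87, 0.85 and 0.82), of which Fam193b shares 10 of its 31-base words with Adra2b. Adra1b was most like Adgre1, the macrophage surface marker (0.83), then Trappc12 (0.81) and Lipa (0.8). Adra1a was most like Ggnbp2 (0.82), and Adra1d most like Ccdc51 (0.79). Adrb1 was most like Dennd2c, Trim65 and Slx4 (0.77, 0.76 and 0.76), the lowest such values of the 8 members. Adrb3 was most like Rasgrp4 (0.87), Myh11, a smooth muscle myosin (0.85), and Ccdc116 (0.84). Myh11 averaged 3.99, 5.28 and 5.01 CPM in the 3 WT groups and 3.38, 3.58 and 3.53 in the KO groups, and like Adrb3 it was not called in KO minus WT (-0.44, SE 0.1, adjusted p = 0.061). Nisch was most like Setd5 and Srrm2 (0.88 and 0.87).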

How the data were processed

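RNA from 18 mouse tumour libraries was analysed as deposited. The authors' table holds estimated counts per gene, whole numbers as deposited, made with Trim Galore 0.6.5 and kallisto 0.46.0 on GRCm38, per the submitters' processing notes. How transcripts were summed to genes, and strandedness, are not given in the sources used here; kallisto divides reads that match several genes. Groups come from the sample titles. Of 21015 identifiers, 20994 matched a RefSeq symbol and 21 others held at most 0.0216% of counts. filterByExpr kept 16125 genes, among them 8 of the 9 members. Libraries were scaled by TMM and modelled together as 6 groups by edgeR 4.0.16 in R 4.3.3, with two-sided quasi-likelihood tests, Benjamini-Hochberg adjustment over all genes, and calls at an adjusted p under 0.05. The biological coefficient of variation common to all genes was 0.145, with 12 residual degrees of freedom. By gene it was 0.0604 for Nisch and from 0.186 (Adrb3) to 0.347 (Adrb1) for the tested receptors. The test was checked on simulated data with the same spread for every gene. That check does not show how well differences of the scarce receptors are found. Transcript lengths and 31-base words come from GENCODE M21.

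The members and lists were chosen with earlier results of these data known. The named genes are the 9 members, up to 4 called genes of each list, the 2 most abundant genes of each list per kilobase, the defining catecholamine genes, and the 3 genes most like each member; Pnmt and the marker genes come from the fixed lists. Some genes that the rule names are not reported here. The alternatives changed the tool (DESeq2 1.42.0, or limma-voom with quality weights in limma 3.58.1), the scaling (RLE, total count), the filter (none, or at least 1 CPM in at least 3 libraries), the block (replicate number), the libraries (each omitted, KO-Guanabenz left out or read as KO-Control) and the gene length (summed exons). A clonidine comparison over both genotypes was added after the data were seen. No 2 libraries held identical values.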

Additional observations from a re-analysis of the deposited data

How the results depend on the processing

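Adra2a in KO minus WT stayed negative under every setting that could be fitted: -1.26 to -1.01 with adjusted p from 0.0078 to 0.033, and -1.3 to -1.12 when a library was left out, with adjusted p from 0.012 to 0.053. The number of members called there was 1, and 0 to 1 over the omissions. DESeq2 gave -1.23 with an unadjusted p of 4.2e-07 and no adjusted p, and the stricter filter kept only 4 members, without Adra2a; the level of the gene limits this result. For any difference among the 6 groups, members called were 0 with total-count scaling, the replicate block, KO-Guanabenz left out and KO-Guanabenz read as KO-Control, and 0 to 1 over the omissions; the cause was not tested.

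Signs changed for small differences. Adra1a in KO minus WT was 0.07 with limma-voom, 0.06 with KO-Guanabenz left out, 0.00 with it read as KO-Control, and -0.26 to 0.07 over the omissions. Over the omissions Nisch in KO minus WT ran from -0.03 to 0.01, the Adrb1 interaction from -0.45 to 0.12 for clonidine and from -0.91 to 0.14 for guanabenz, and WT-Clonidine minus WT-Guanabenz from -0.28 to 0.83 for Adrb1 and from -0.03 to 0 for Nisch, which was 0 with total-count scaling. Of the 57 other member differences 34 changed sign under some setting and 0 were called under any. A difference with no adjusted p counted as not called.

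Over all genes, calls in KO minus WT numbered 67, against 618 with DESeq2, 362 with limma-voom, 38 with total-count scaling, 443 with KO-Guanabenz left out, 32 with it read as KO-Control, and 7 to 111 over the omissions. For any difference they numbered 326, against 1908, 2182, 79, 135 and 5 in that order, 210 with no filter, 158 with the replicate block and 6 to 522 over the omissions. DESeq2 and limma-voom called 355 and 773 in WT under clonidine, 171 and 6 under guanabenz, 29 and 3 in KO under clonidine, and 457 and 343 under guanabenz. Same-numbered libraries did not deviate together (correlations -0.33 to 0.25, median 0.01), which gave no sign that the numbers pair the samples. With 3 libraries per group a weak pairing could be missed. Of 18 libraries, 5 were most like their own number. The replicate block gave 60 calls in KO minus WT and -1.23 for Adra2a. Of 54 group means, 54 stayed within 1 SD under RLE and 53 under total-count scaling.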
